A study of Mus musculus with 12 samples.

Results

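The comparison of newborn with late fetal cerebral cortex was made on 6 of the 12 libraries of a mouse developmental series: the 3 titled as postnatal day 1 (P1) and the 3 titled as embryonic day 17 (E17), chosen by their titles alone. All came from C57BL/6 mice, and the labels name no genetic change and no treatment at either age. A single animal gave each library, an embryo at E17 and a pup at P1, and no 2 libraries of one age share a litter. The other 6 libraries, from embryonic days 11 and 13 (E11 and E13), entered the statistical model and are given here only as context. Sex, hour of collection and time since delivery are not given in the labels.

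Birth replaces the placental supply of oxygen, glucose and hormones by breathing, fasting and then milk, which is rich in fat. In the mouse cortex the days around birth are those in which the production of projection neurons ends, the remaining radial glia (the stem cells of the cortex) turn to making glia, and young neurons start to form synapses and to fire. Thyroid hormone and glucocorticoids change in the blood around birth in mammals and act through nuclear receptors in the brain. In a bulk sample a fall in the RNA of a cell type can come from fewer cells of that type or from less RNA per cell, and these cannot be told apart here.

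The 6 libraries held 28173745 to 45858712 reads assigned to genes. Levels are CPM, reads per 1000000 of the scaled library, and are listed in the order A, B, C. A log2 difference is P1 minus E17, so that positive values are higher at P1. The ± after a log2 difference is the standard error (SE) of the fit, the ± after a mean level is the SD over 3 libraries (n = 3), and adjusted p-values are those of edgeR's quasi-likelihood test over 17847 genes. A cortical marker was present at both ages. Emx1, a transcription factor of the dorsal cortex, lay at 34.7, 30.3 and 39.9 CPM at E17 and 38.4, 40.8 and 42.2 CPM at P1.

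Many genes differed between the 2 ages, mostly by small amounts. Of the 17847 genes tested, 8913 (49.9%) passed an adjusted p of 0.05, 4283 higher at P1 (24% of all tested) and 4630 lower (25.9%). At least 2-fold rises numbered 1123 (6.29%) and 2-fold falls 612 (3.43%). The 3 libraries of one age lay wholly above the 3 of the other for 62.4% of all tested genes, so separation of the groups is by itself the usual case here. The median log2 difference over all tested genes was -0.000627. The alternatives mentioned beside a gene are other scalings, filters, sets of libraries and tools. The shares and the median are the background for the gene groups below, which are described by counts and medians without a test of the group.

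Within each age the libraries were not copies of one another. Squared differences between counts of 2 same-age libraries were 9.858 to 17.24 times those of counting error alone (chi-squared over its degrees of freedom). For a library of each age they were 48.84 to 155 times. This ratio grows with depth, which differed between libraries. The first principal component of log2(CPM + 1) over the 6 libraries carried 78.9% of the variance and placed E17 at -28.8, -22.5 and -36.9 and P1 at 24.2, 26.5 and 37.5. E17 C and P1 C thus lay farthest apart and E17 B and P1 A closest.

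**Figure D1:**
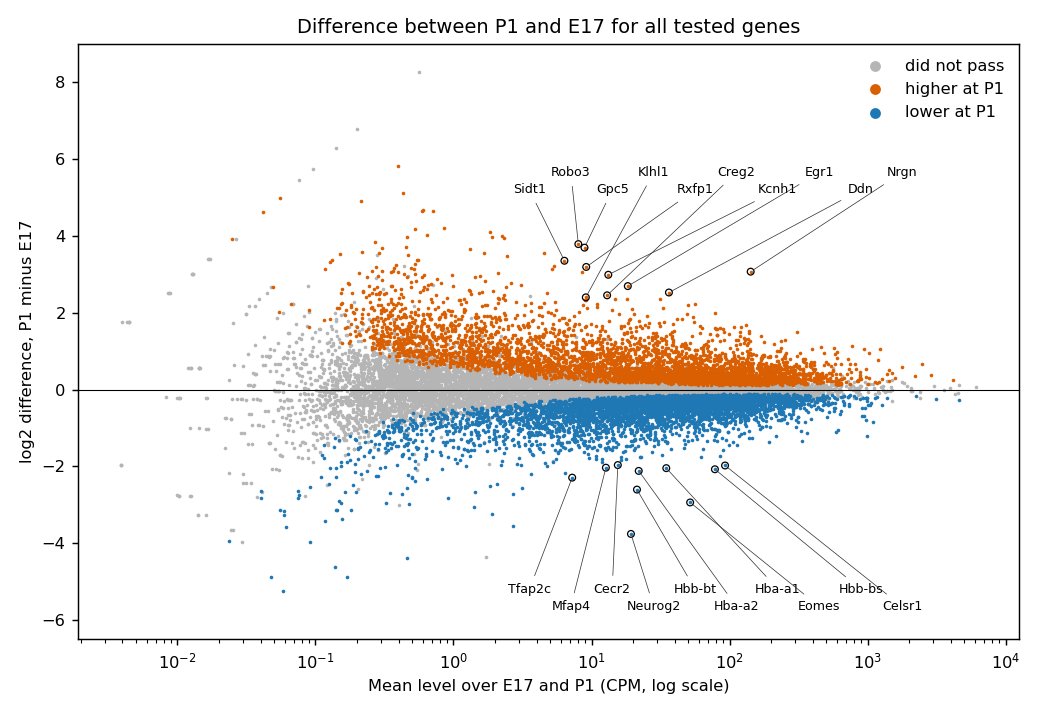
Log2 difference between P1 and E17 (vertical) against the mean level over both ages in CPM (horizontal, log scale) for the 17847 tested genes. Each point is a gene; orange and blue points passed an adjusted p of 0.05 with a higher or lower level at P1, grey points did not pass. Named points are the genes with the 10 largest rises and falls above 10 CPM; the falls include progenitor genes such as Neurog2 and Eomes and the globins, and the rises include Nrgn and Egr1.

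Most listed genes of neurogenic progenitors fell. Neurog2, the proneural factor that starts neuron production in the dorsal cortex, read 32, 29 and 46.7 CPM at E17 and 3.2, 3.61 and 1.27 CPM at P1. This was the largest fall among genes above 10 CPM (log2 difference -3.76 ± 0.30; adjusted p = 6.66e-06). Every E17 library lay far above every P1 library.
The T-box factor Eomes, which defines intermediate progenitors, went from 82.3, 73.6 and 119 to 15.2, 15 and 5.85 CPM (log2 difference -2.94 ± 0.33; adjusted p = 6.42e-05). P1 C was the lowest of the P1 libraries for both genes. Of the 16 genes of intermediate progenitors and proneural regulators 14 fell, against 25.9% of all tested genes, and none rose, with a median log2 difference of -1.29. Falls included Neurod4 (-2.51) and Neurod1 (-1.29), later members of the proneural cascade, and Insm1 (-1.29), which drives progenitors out of the ventricular zone. Hes6 (63.8 ± 2.56 and 62.2 ± 2.8 CPM, adjusted p = 0.585) and Dll3 (adjusted p = 0.724) did not pass.

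Genes of cell division fell as well. All 24 mitosis genes fell, with a median log2 difference of -1.41, and so did all 24 DNA replication genes, with a median of -0.79. Mki67, the proliferation antigen Ki-67, went from 149, 109.7 and 144 to 50.2, 43.5 and 40.5 CPM (log2 difference -1.59 ± 0.12; adjusted p = 2.09e-06). The lowest E17 library, B, still lay above the highest P1 library by more than the spread within either age. The G2/M cyclin Ccnb2 read 13.9, 10.5 and 16.8 CPM at E17 and 5.51, 5.46 and 5.37 CPM at P1 (log2 difference -1.34 ± 0.15). Cdk1, the kinase it activates, read 30.5, 23 and 33.2 and 12, 11.1 and 11.7 CPM (log2 difference -1.32 ± 0.13), and Cdc20, which triggers exit from mitosis, 22.6, 15.3 and 24.3 and 9.56, 7.6 and 8.31 CPM (log2 difference -1.3 ± 0.15). In all these genes E17 B was the lowest of the E17 libraries, and none of the groups overlapped. Top2a, which untangles sister chromatids, read 157, 116 and 159 CPM at E17 and 57.4, 50.9 and 50.7 CPM at P1 (log2 difference -1.44 ± 0.10), and Ube2c, which supplies ubiquitin to the anaphase-promoting complex, fell by 1.56 on the log2 scale. Among replication genes falls included those of Ccne2 (-1.62), the S-phase cyclin, and Uhrf1 (-1.48), which carries DNA methylation through replication. The licensing factor Cdt1 (-0.55) and the clamp Pcna (-0.52) fell less. The decline had begun earlier: the summed level of the mitosis list was 6060, 5920 and 6140 CPM at E11, 5400, 4770 and 5500 at E13, then 923, 676 and 964 in the E17 libraries, ending with 341, 301 and 306 in those of P1.

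The start regions of 4 of these mitosis genes are shown because the genes moved together and share known promoter elements. CCAAT is the box bound by NF-Y, and TTTGAA is the core of the cell cycle homology region (CHR), through which the DREAM complex restrains mitotic genes in resting cells. Sequences are from RefSeq (GRCm38.p6), the 160 bases before the start of transcription, 5′ to 3′ on the strand of the gene, with both motifs in capitals (ATTGG and TTCAAA are the same motifs read on the other strand).
Mki67 (chr7:135716380-135716539, minus strand): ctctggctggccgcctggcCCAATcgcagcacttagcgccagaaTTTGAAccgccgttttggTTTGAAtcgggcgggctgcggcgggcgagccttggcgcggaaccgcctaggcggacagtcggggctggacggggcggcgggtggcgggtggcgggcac
Cdk1 (chr10:69352913-69353072, minus strand): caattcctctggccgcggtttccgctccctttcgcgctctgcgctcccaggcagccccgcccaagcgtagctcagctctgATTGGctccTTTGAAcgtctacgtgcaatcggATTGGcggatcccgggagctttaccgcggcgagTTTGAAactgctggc
Top2a (chr11:99024190-99024349, minus strand): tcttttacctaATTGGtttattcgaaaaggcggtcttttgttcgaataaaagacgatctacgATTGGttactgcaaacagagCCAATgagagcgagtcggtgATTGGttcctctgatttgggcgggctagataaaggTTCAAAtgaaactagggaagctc
Ube2c (chr2:164769769-164769928, plus strand): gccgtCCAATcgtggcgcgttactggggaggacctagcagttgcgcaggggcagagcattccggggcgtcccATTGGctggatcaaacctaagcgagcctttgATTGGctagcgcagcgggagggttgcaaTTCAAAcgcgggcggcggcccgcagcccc
Promoters of 20 of the 24 genes were in the table. Within 250 bases before the start, 17 of them (85.0%) held CCAAT on either strand, against 37.5% of all 27025 genes with a promoter. TTTGAA was in 8 (40.0%), against 18.3%, and both stood in 1 promoter for 8 (40.0%), against 6.45%. CCAAT was also in 14 of 15 promoters (93.3%) of cholesterol synthesis genes, a list in which few genes changed (35%, against 49.9% of all tested genes). A match is a description of the letters and not of binding.

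Radial glia genes fell more often than they rose. Of 20 such genes 11 fell and 2 rose, with a median of -0.36, where 25.9% of all tested genes were lower and 24% higher. The intermediate filament Vim went from 288, 295 and 319 to 141, 132 and 116 CPM (log2 difference -1.21 ± 0.07; adjusted p = 6.35e-07), a clear separation of the ages, and the neural stem cell filament Nes fell by 0.8 on the log2 scale. The transcription factors Pax6 (-1.0) and Emx2 (-0.78) and the receptors Notch1 (-0.65) and Notch2 (-0.93) also fell. The 2 that rose are also expressed by astrocytes: the glutamate transporter Slc1a3 (0.44) and the endothelin receptor Ednrb (0.66). The Notch targets Hes1 and Hes5 read 4.92 ± 0.215 and 11.9 ± 2.03 CPM at E17 and 6.03 ± 1.33 and 12.5 ± 2.08 CPM at P1 and did not pass (adjusted p = 0.104 and 0.643), though Hes1 passed without P1 B (adjusted p = 0.00336). Fabp7, the lipid carrier of radial glia, was at 404, 544 and 423 CPM at E17 and 360.2, 359 and 404 CPM at P1 (adjusted p = 0.131).

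Genes of migrating and immature neurons moved in both directions, with more falls than rises. Sox11, which drives the first steps of neuronal differentiation, went from 1339, 1255 and 1565 to 632, 629.9 and 542 CPM (log2 difference -1.21 ± 0.11; adjusted p = 6.36e-06), and its relative Sox4 fell by 0.79 on the log2 scale. Nhlh1, a bHLH factor of newly born neurons, went from 3.56, 5.05 and 6.21 to 0.346, 0.747 and 0.191 CPM (log2 difference -3.56 ± 0.33). For Sox11 and Nhlh1 the ages did not overlap. Igfbpl1 (-1.33), the axon guidance receptor Nrp1 (-1.25) and the midline guidance protein Draxin (-0.77) fell as well. The migration gene Dcx (2501, 2427 and 2797 and 2267, 2301 and 2085 CPM; adjusted p = 0.154, and 0.0138 in the fit to the 6 libraries alone) and the neuronal tubulin Tubb3 (adjusted p = 0.295) did not pass. Gap43, the growth cone protein, rose from 525, 601 and 455 to 853, 858 and 1058 CPM (log2 difference 0.81 ± 0.11; adjusted p = 9.64e-05), and Stmn2 rose by 0.42. In this group of 21 genes 9 fell and 4 rose (median -0.21). Of 16 neurofilament and axon genes 7 rose and 2 fell (median 0.24; 5 changed without E17 C and 5 without P1 C). This was 56.2% changed, against 49.9% of all tested genes. The presynaptic synuclein Sncb (1.04) and the microtubule protein Map1a (0.74) rose and the intermediate filament Ina (-0.46) fell.

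Genes that specify neurons of given layers moved in both directions. Of 14 deep-layer genes 6 fell and 3 rose (median -0.26), so 64.3% changed, against 49.9% of all tested genes. Tbr1, the factor of layer 6 neurons, went from 307, 243 and 339 to 199, 186 and 184 CPM (log2 difference -0.64 ± 0.13), and Sox5, which holds back subcerebral fate, fell by 0.95 on the log2 scale. Tle4 (-0.5) and Fezf2 (-0.31), the latter a master factor of subcerebral neurons, fell by less. Cplx3, a complexin of subplate neurons, rose from 0.265, 0.537 and 0.0938 to 3.52, 3.2 and 6.25 CPM (log2 difference 3.95 ± 0.45; adjusted p = 4.5e-05). All its E17 libraries lay far under all its P1 libraries.
Among 14 upper-layer genes 4 rose and 4 fell (median -0.054), near the 24% higher and 25.9% lower of all tested genes. Mef2c, a factor of activity-dependent synapse development, went from 846, 857 and 711 to 1558, 1587 and 1846 CPM (log2 difference 1.05 ± 0.12; adjusted p = 1.62e-05), and the POU factors parted, with Pou3f1 at 0.8, Pou3f2 at -0.93 and Pou3f3 at -0.37. Cux2, a factor of upper-layer neurons, did not pass (adjusted p = 0.995). Without P1 C 5 upper-layer genes changed.
Of 10 genes of Cajal-Retzius cells, the early reelin-secreting neurons of the surface, 6 fell and none rose, including Trp73 (-0.58) and Ebf3 (-0.91). This was 60% changed, against 49.9% of all tested genes. Reln itself read 582, 578 and 574 CPM at E17 and 432, 517 and 394 CPM at P1 and did not pass (adjusted p = 0.073), though it passed as lower in 4 of 16 alternatives (adjusted p = 0.00683 to 0.0474), lowest with the replicate letters as a block and next in the fit to the 6 libraries alone (0.00803). Of 21 interneuron genes 5 rose and 2 fell (median 0.013), so 33.3% changed, fewer than the 49.9% of all tested genes. The share that rose was near the 24% of all tested genes. Those that rose included the peptides Vip (0.0757, 0.179 and 0.0234 to 1.38, 1.39 and 2.08 CPM; log2 difference 4.22 ± 0.48), Cck (1.74) and Npy (0.6), whereas the lineage factors Lhx6 (adjusted p = 0.265, and 0.0499 in the fit to the 6 libraries alone) and Dlx1 (adjusted p = 0.93) did not pass. Vip was far under 1 CPM in every E17 library, so the size of its rise rests on few reads. In the fit to the 6 libraries alone 11 of the interneuron genes passed.

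**Figure D2:**
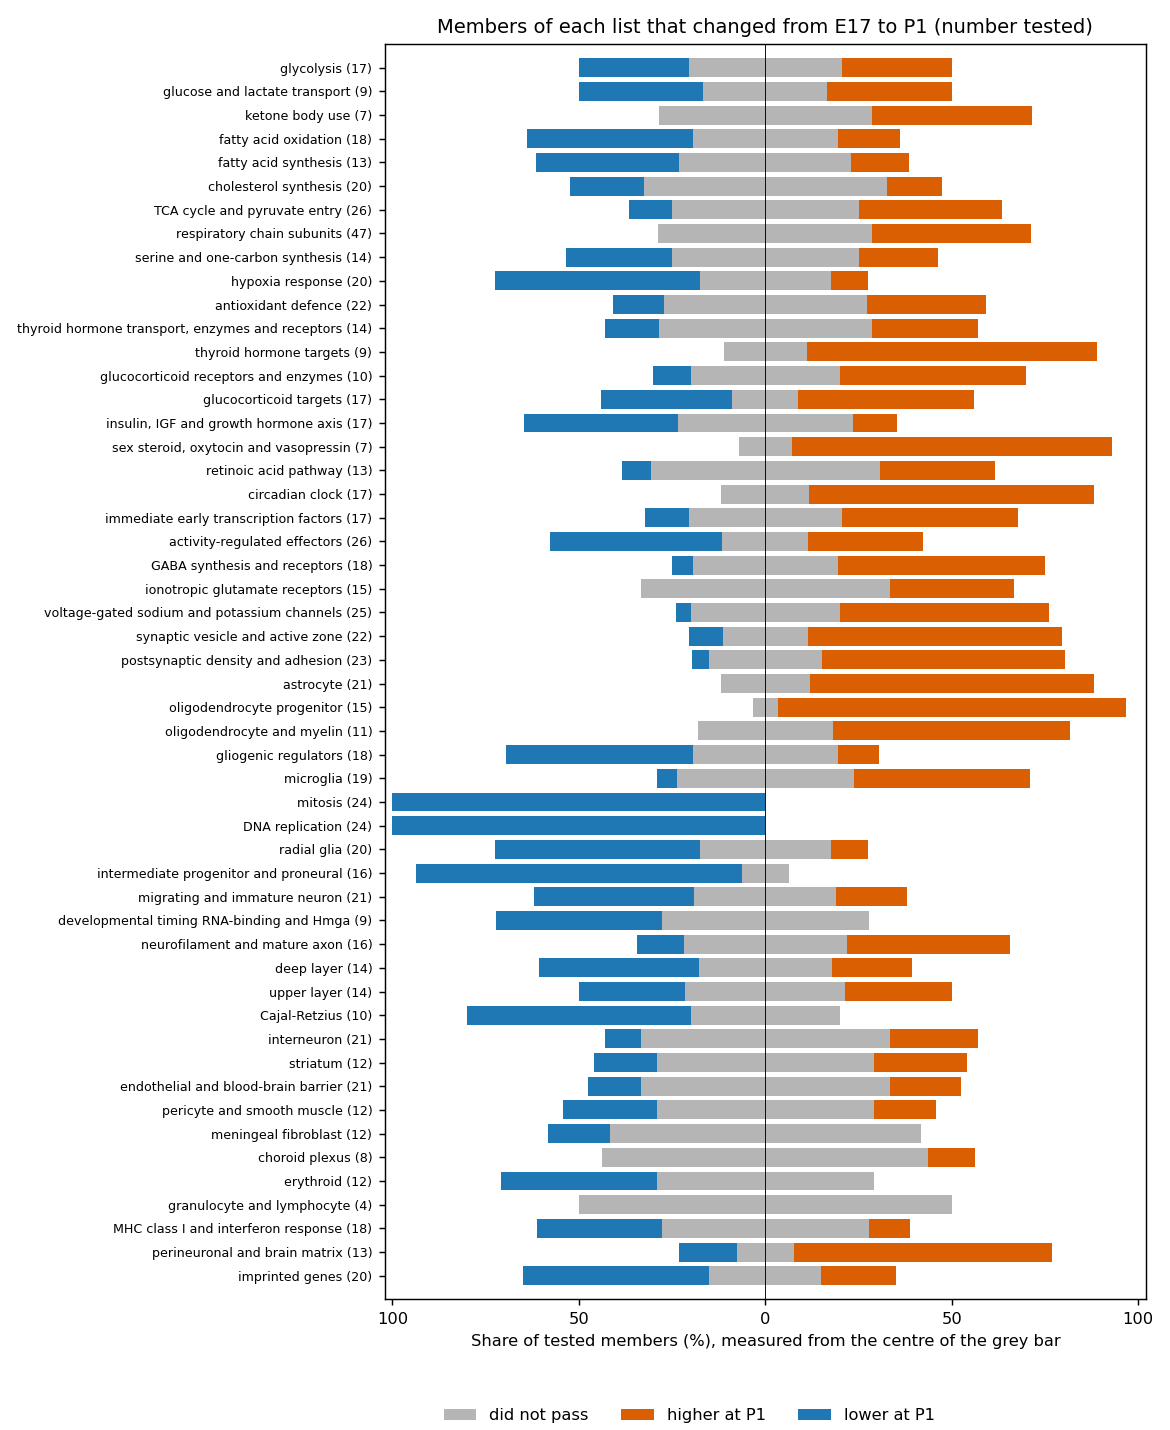
Share of the tested members of each gene list (percent, horizontal) that were higher at P1 (orange), lower at P1 (blue) or did not pass an adjusted p of 0.05 (grey, centred on 0); each bar adds up to the whole list, and the number tested is in parentheses. The mitosis and DNA replication bars are wholly blue, and the oligodendrocyte progenitor, clock and respiratory chain bars hold no blue, where 24% of all tested genes were higher and 25.9% lower.

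Astrocyte genes rose in most cases. Of 21 astrocyte genes 16 rose and none fell, with a median log2 difference of 0.78. Gfap, the astrocyte intermediate filament, went from 6.7, 20.6 and 4.06 to 49.2, 59.8 and 48.9 CPM (log2 difference 2.35 ± 0.47; adjusted p = 0.0022), with E17 B above the other E17 libraries but under every P1 library. The water channel Aqp4 went from 6.1, 8.27 and 3.66 to 27.9, 26.7 and 36.6 CPM (log2 difference 2.36 ± 0.27) and the lipoprotein Apoe from 67, 61.2 and 51.4 to 181, 176 and 195 CPM (log2 difference 1.62 ± 0.10; adjusted p = 1.12e-06). Hepacam (1.53), a cell adhesion partner of the astrocyte junction protein Mlc1 (0.64), and the transporters Slc1a2 (0.78) and Slc7a10 (1.02) rose too. Aldh1l1 (53.5 ± 4.77 and 66.1 ± 5.46 CPM; adjusted p = 0.416), Gja1 (adjusted p = 0.353) and Fgfr3 (adjusted p = 0.992) did not pass. Gja1 passed without E17 B (adjusted p = 0.0348) and Aldh1l1 in the fit to the 6 libraries alone (0.008). The summed level of the list was 1070, 1300 and 941 CPM at E17 and 1900, 1760 and 1970 CPM at P1.

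Nearly the whole list of oligodendrocyte progenitor genes rose. Of 15 progenitor genes 14 rose and none fell, with a median of 1.1. The count was 8 without E17 C, 8 without P1 C and 9 without the filter on low counts. Pdgfra, the growth factor receptor that defines these progenitors, went from 54.5, 56.2 and 39.4 to 123, 114 and 122 CPM (log2 difference 1.26 ± 0.16; adjusted p = 7.61e-05). Olig1 read 40.9, 52.2 and 23.7 CPM at E17 and 104, 104 and 111 CPM at P1 (log2 difference 1.46 ± 0.29; adjusted p = 0.0019, and 0.0517 in DESeq2). E17 C was the lowest library in both. Olig2, its partner factor, rose by 0.89 (adjusted p = 0.0243), a call lost in 5 of 16 alternatives (adjusted p = 0.0504 to 0.0998), which were no filter on low counts and the absence of E17 A, E17 C, P1 A or P1 C. The neuroglycan Cspg5 (1.08) and the matrilin Matn4 (2.05) rose in every setting tried.
Of 11 measured genes of later oligodendrocytes 7 rose and none fell (median 0.89). Bcas1, which marks cells starting to myelinate, went from 2.16, 2.26 and 1.41 to 6.34, 6.39 and 10.4 CPM (log2 difference 2.01 ± 0.24), and Mbp, the myelin basic protein, from 28, 33.2 and 28 to 53.1, 49.7 and 63 CPM (log2 difference 0.89 ± 0.09). Mog, on the surface of mature myelin, had 10 reads over the 3 E17 libraries and 8 over the 3 P1 libraries, and Mobp had 0 and 4, so neither could be compared at this depth.

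Factors that prepare glial fate in progenitors fell more often than they rose. Of 18 gliogenic regulators 9 fell and 2 rose (median -0.2), so 61.1% changed, against 49.9% of all tested genes. Nfib, a nuclear factor I gene, went from 789, 739 and 878 to 393, 403 and 327 CPM (log2 difference -1.1 ± 0.26; adjusted p = 0.00534), and Zbtb20 from 212, 288 and 184 to 121, 139 and 89.2 CPM (log2 difference -0.97 ± 0.22). For both, every P1 library lay under every E17 library. Sox9 (-0.48) fell too, and Nfia fell by 0.81 on the log2 scale (adjusted p = 0.0108, and 0.0504 without P1 C). Nfix, of the same family, read 1288 ± 114 and 1491 ± 82.9 CPM and did not pass (adjusted p = 0.581, and 0.0221 in the fit to the 6 libraries alone). Stat3, the transcription factor of the cytokine pathway that switches on Gfap, rose from 23.3, 27.1 and 21.7 to 36.6, 38.2 and 35.6 CPM (log2 difference 0.62 ± 0.12; adjusted p = 0.000787).
Of 19 microglial genes 9 rose and 1 fell (median 0.49), so 52.6% changed, near the 49.9% of all tested genes. The identity genes P2ry12, Csf1r and Cx3cr1 did not pass (adjusted p = 0.353, 0.121 and 0.103), though Csf1r passed without E17 C (adjusted p = 0.0145) and Cx3cr1 in the fit to the 6 libraries alone (0.00253). The lipid receptor Trem2 rose from 1.48, 1.5 and 1.95 to 3.78, 3.74 and 3.29 CPM (log2 difference 1.12 ± 0.21) and the phagocytic receptor Clec7a by 1.58. Spp1, osteopontin, rose from 1.93, 8.31 and 1.62 to 19.2, 21.9 and 13.2 CPM (log2 difference 2.22 ± 0.52; adjusted p = 0.00498), with E17 B above the other E17 libraries.

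**Figure D3:**
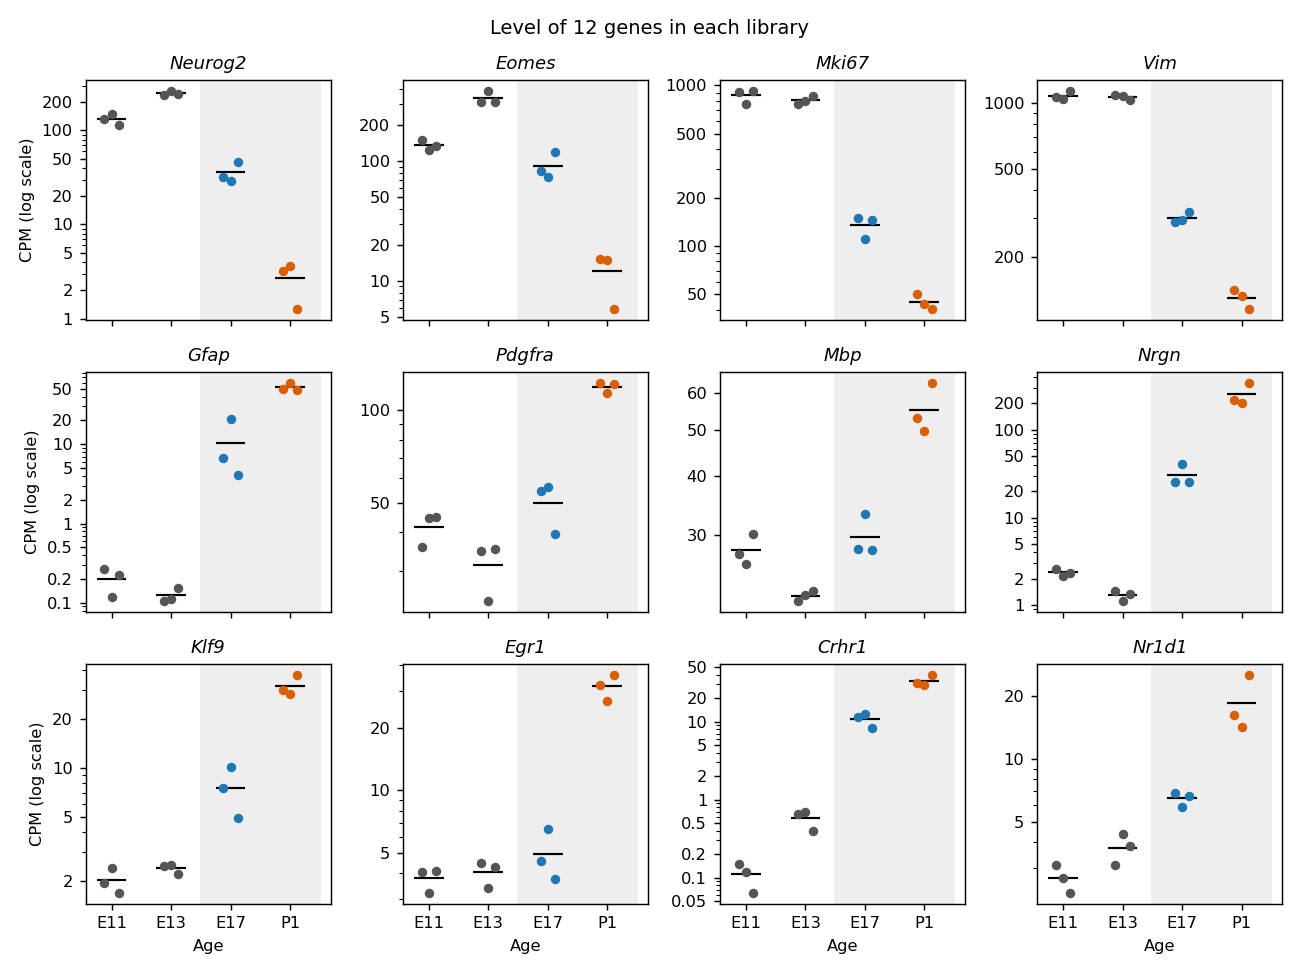
Level in CPM (log scale) of 12 genes in each of the 12 libraries by age; each point is 1 library, the bar is the mean of 3, and the shaded columns are the 2 ages compared. Neurog2, Eomes, Mki67 and Vim fall from E17 to P1, and Gfap, Pdgfra, Mbp, Nrgn, Klf9, Egr1, Crhr1 and Nr1d1 rise.

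In energy metabolism, 42.6% of respiratory chain genes and 50% of genes of the tricarboxylic acid cycle and pyruvate entry changed. Over all tested genes the share was 49.9%, with 24% higher and 25.9% lower at P1. Of 47 nuclear-encoded subunits of the respiratory chain 20 rose and none fell, with a median of 0.13, so the differences were small. An example is Cox8a, a subunit of cytochrome oxidase, from 86, 76.8 and 69.9 to 107, 114 and 119.8 CPM (log2 difference 0.55 ± 0.09; adjusted p = 0.000267). Cox5b (0.46) and Cox6a1 (0.42) of the same complex followed, whereas Atp5a1 of the ATP synthase (0.12; adjusted p = 0.068) did not pass here but did in 6 of 16 alternatives (adjusted p = 0.011 to 0.0418). Of 26 genes of the tricarboxylic acid cycle and pyruvate entry 10 rose and 3 fell (median 0.1), the rises including those of Pdha1 (0.46), a subunit of the enzyme that admits pyruvate to the cycle, and Idh3a (0.46). The kinases that close that entry did not move one way. Pdk4, induced by fasting, rose from 3.11, 2.11 and 2.37 to 3.97, 4.15 and 4.01 CPM (log2 difference 0.68 ± 0.17; adjusted p = 0.00469). Pdk2 fell by 0.31 (adjusted p = 0.0146) and Pdk3 by 0.25 (adjusted p = 0.0166) on the log2 scale, and Pdk1 did not pass (-0.2; adjusted p = 0.11, and 0.0427 without E17 A). The Pdk2 call was lost in 3 of 16 alternatives (adjusted p = 0.0535 to 0.0987), without E17 C, P1 B or P1 C. The Pdk3 call was lost in 5 of 16 alternatives (adjusted p = 0.0563 to 0.0908), without E17 B, E17 C, P1 B or P1 C and with the replicate letters as a block.

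Glycolytic isoforms moved apart. Of 17 glycolysis genes 5 rose and 5 fell (median -0.16), so 58.8% changed, against 49.9% of all tested genes. Hk2, the hexokinase of growing and hypoxic cells, went from 8.6, 11.1 and 11.8 to 4.47, 5.05 and 4.03 CPM (log2 difference -1.23 ± 0.13), while Hk1, the main hexokinase of adult brain, went from 273, 300.1 and 271 to 385, 382 and 420.0 CPM (log2 difference 0.49 ± 0.09). The ages did not overlap for either. The platelet-type phosphofructokinase Pfkp rose from 163, 146 and 126 to 325, 340.2 and 406 CPM (log2 difference 1.3 ± 0.14; adjusted p = 2.05e-05) and the neuronal enolase Eno2 by 0.9, while Pfkl (-0.37), Pkm (-0.36) and Eno1 (-0.3) fell. Slc2a1, the glucose transporter of the blood-brain barrier, went from 66.2, 67.1 and 75.8 to 40.6, 35.6 and 37.4 CPM (log2 difference -0.88 ± 0.07; adjusted p = 2.12e-06). Slc2a3, the neuronal transporter, read 62.7 ± 5.98 and 72.9 ± 7.69 CPM and did not pass (adjusted p = 0.0535), though it passed as higher in 8 of 16 alternatives (adjusted p = 0.00707 to 0.0462), which included leaving out E17 B or P1 B.
Genes for the use of ketone bodies, which suckling animals make from milk fat, rose in 3 of 7 cases. None fell, and the 42.9% that changed compare with 49.9% of all tested genes. Oxct1, the enzyme that commits ketone bodies to oxidation, went from 291, 303 and 278 to 373, 365 and 432 CPM (log2 difference 0.42 ± 0.07; adjusted p = 0.000164). Bdh1 (adjusted p = 0.158, and 0.00913 in the fit to the 6 libraries alone) and the transporter Slc16a1 (28.5, 38.5 and 31 and 35.9, 32.5 and 41.3 CPM; adjusted p = 0.231, and 0.0235 without E17 B) did not pass. In the fit to the 6 libraries alone 5 of the 7 changed.

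Of 18 genes of fatty acid oxidation 8 fell and 3 rose (median -0.16, and 7 changed without P1 B). This was 61.1% changed, against 49.9% of all tested genes. Cpt2 (-0.65), Acads (-0.64) and Hadhb (-0.42) of the mitochondrial pathway fell, and the long-chain dehydrogenase Acadl (0.53) and the coactivator Ppargc1a (0.53) rose. Of 13 genes of fatty acid synthesis 5 fell and 2 rose (median -0.07), so 53.8% changed, near the share of all tested genes. Acly (-0.42), which supplies acetyl units, fell, and the NADPH source Me1 rose from 24.1, 22.9 and 21.9 to 42.4, 43.6 and 49 CPM (log2 difference 0.97 ± 0.10).
Few genes of cholesterol synthesis changed (35%, against 49.9% of all tested genes), with 3 of 20 genes higher and 4 lower and a median of -0.035. Sc5d (-0.57) and Msmo1 (-0.49), of its late steps, were among those that fell.
Tyms, the folate enzyme that makes thymidylate for DNA synthesis, fell by 0.92 on the log2 scale, and the mitochondrial folate enzyme Mthfd1l rose from 5.87, 5.16 and 5.28 to 8.74, 10.4 and 13.2 CPM (log2 difference 0.99 ± 0.15).

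Genes induced by low oxygen fell more often than they rose. Among 20 such genes 11 fell and 2 rose (median -0.23), so 65% changed, against 49.9% of all tested genes. The histone demethylase Kdm3a went from 93, 95.4 and 139 to 59.6, 53 and 44.9 CPM (log2 difference -1.06 ± 0.15; adjusted p = 0.000196) and Ddit4, an inhibitor of mTORC1, from 92, 107 and 115 to 52.3, 56.6 and 45.5 CPM (log2 difference -1.02 ± 0.13; adjusted p = 6.53e-05). Neither pair of groups overlapped. Ankrd37 (-1.43), Adm (-1.57), Pfkfb3 (-0.48) and Hif1a itself (-0.24) also fell. Car9, also induced by low oxygen, went the other way (2.51, adjusted p = 0.00156) and passed in all 13 alternatives that tested it. Bnip3 (22.8 ± 2.03 and 22.9 ± 0.729 CPM; adjusted p = 0.993), Egln1 and Ndrg1 did not pass (adjusted p = 0.389 and 0.284), though Ndrg1 passed as lower in the fit to the 6 libraries alone (0.0391). The call of the angiogenic factor Vegfa (-0.42; adjusted p = 0.0194) was lost without E17 B (adjusted p = 0.073), without P1 A (0.0822) without P1 B (0.0676) and without the filter on low counts (0.0721). Of 22 antioxidant genes 7 rose and 3 fell (median 0.18), so 45.5% changed, against 49.9% of all tested genes. Gpx4 (0.32) and Prdx5 (0.29) rose and the master regulator Nfe2l2 (-0.58) fell.

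In the thyroid hormone pathway both receptors and most listed targets rose, while 8 of 14 genes of transport, enzymes and receptors did not pass. Of the 9 genes listed as targets of the hormone 7 rose and none fell, with a median of 0.65. This was 77.8% changed, against 49.9% of all tested genes. Nrgn, the postsynaptic calmodulin buffer neurogranin, went from 25.4, 40.2 and 25.4 to 218, 200.4 and 343 CPM (log2 difference 3.07 ± 0.23; adjusted p = 4.97e-06). Klf9, a factor induced by thyroid hormone and by glucocorticoids, went from 7.54, 10.2 and 4.88 to 30.1, 28.5 and 37.6 CPM (log2 difference 2.11 ± 0.21; adjusted p = 1.09e-05). For both, E17 B was the highest E17 library and lay under every P1 library. The corepressor Hr (0.52), Rasd2 (1.33) and Flywch2 (0.84) rose as well.
Dio2, which converts the prohormone to the active form, went from 19, 24.4 and 11.6 to 38, 42.7 and 34.1 CPM (log2 difference 1.07 ± 0.26; adjusted p = 0.00549), and Dio3, which inactivates it, from 0.265, 1.86 and 2.63 to 0.266, 0.232 and 0.191 CPM (log2 difference -2.82 ± 0.67; adjusted p = 0.0043). The Dio3 groups overlapped, since E17 A read as low as the P1 libraries. The receptor Thrb went from 4.54, 4.44 and 4.34 to 7.94, 7.6 and 11.2 CPM (log2 difference 1.01 ± 0.21) and Thra from 1357, 1492 and 1352 to 1694, 1758 and 1752 CPM (log2 difference 0.31 ± 0.07). The transporter Slco1c1 did not pass (adjusted p = 0.438, and 0.0405 with the replicate letters as a block). Of the 14 genes of transport, enzymes and receptors 4 rose and 2 fell (median 0.013). This was 42.9% changed, against 49.9% of all tested genes.

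**Figure D4:**
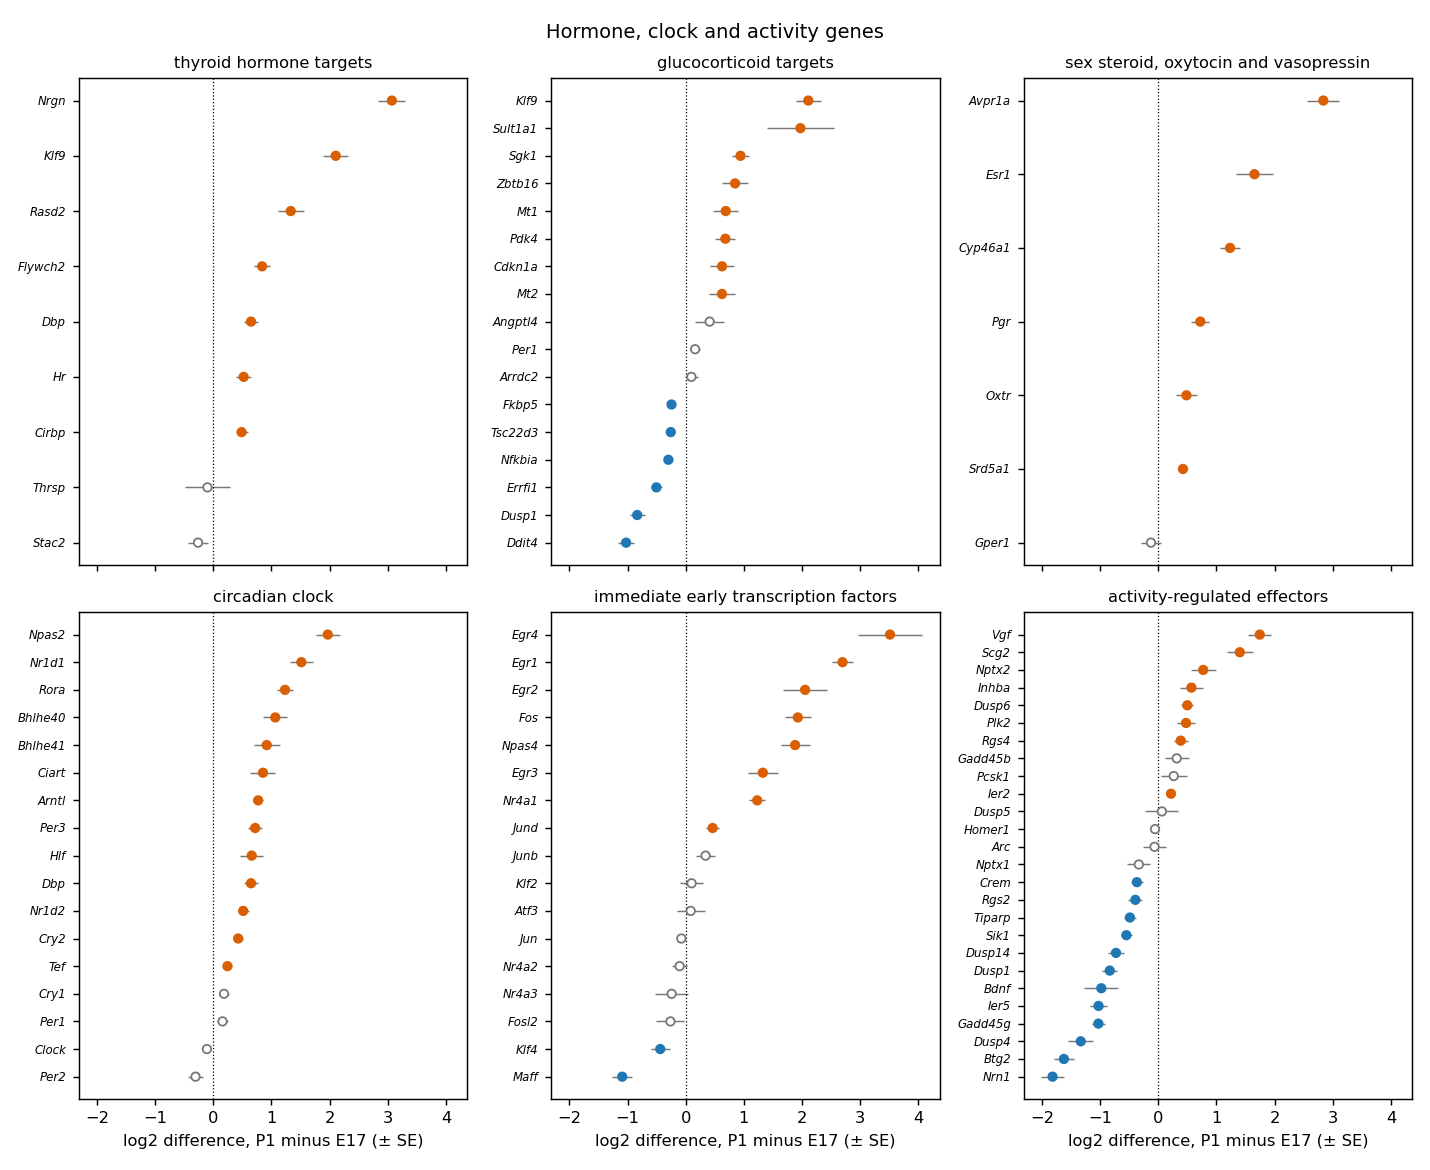
Log2 difference, P1 minus E17, with its SE (bars) for every tested member of 6 lists on hormones, the clock and activity. Filled points passed an adjusted p of 0.05 and open points did not; the dotted line marks no difference. Members of the clock and thyroid hormone target lists that passed lie to the right, while the activity-regulated effectors lie on both sides, from Nrn1 (-1.82) to Vgf (1.74).

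In the glucocorticoid system the receptor Nr3c1 rose from 14.4, 16.9 and 13.1 to 23.1, 23.4 and 26 CPM (log2 difference 0.71 ± 0.13; adjusted p = 0.000484), while the mineralocorticoid receptor Nr3c2 read 11.5 ± 2.97 and 11.3 ± 2.81 CPM (adjusted p = 0.953). Hsd11b1, which regenerates active corticosteroid, rose from 0.454, 0.644 and 0.399 to 1.2, 1.78 and 2.34 CPM (log2 difference 1.85 ± 0.32). Crhr1, the receptor of the stress peptide CRH, went from 11.6, 12.6 and 8.32 to 31.8, 29.3 and 40.1 CPM (log2 difference 1.64 ± 0.17; adjusted p = 8.03e-06), and Crh itself had 4 reads over the 3 E17 libraries and 134 over the 3 P1 libraries (adjusted p = 4.73e-05).
The 17 listed targets did not move one way: 8 rose and 6 fell (median 0.41). Fkbp5, among the most used markers of receptor activity, went from 79.9, 77.4 and 79.9 to 67.6, 66.7 and 65.9 CPM (log2 difference -0.24 ± 0.06; adjusted p = 0.00243), and Tsc22d3 fell by 0.26 on the log2 scale. Sgk1 rose from 35.5, 40.5 and 24.3 to 63.5, 60 and 68.3 CPM (log2 difference 0.94 ± 0.14) and Zbtb16 by 0.85, while Per1 did not pass (adjusted p = 0.157). Ddit4, on this list and on that of low oxygen, fell.

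Of the insulin, insulin-like growth factor and growth hormone axis, the receptors Igf1r, Insr and Igf2r fell, and the growth hormone receptor Ghr did not pass (log2 difference 0.31; adjusted p = 0.0917, and 0.0464 without E17 C). Igf1r went from 214, 219.8 and 217 to 152, 157 and 137 CPM (log2 difference -0.55 ± 0.08; adjusted p = 0.000104), the insulin receptor Insr fell by 0.36, the clearance receptor Igf2r by 0.51 and the adaptor Irs1 by 0.53 on the log2 scale. Igf1, the ligand, rose from 3.45, 6.19 and 5.37 to 8.55, 9.9 and 9.14 CPM (log2 difference 0.87 ± 0.22; adjusted p = 0.00551), and the binding protein Igfbp3 went from 59.5, 65.3 and 76.1 to 28.7, 27.3 and 25.1 CPM (log2 difference -1.31 ± 0.22). Of the 17 tested genes 7 fell and 2 rose (median -0.22), so 52.9% changed, near the 49.9% of all tested genes. Igf2 read 47, 44.8 and 43.4 CPM at E17 and 52.8, 23.5 and 23.4 CPM at P1 and did not pass (adjusted p = 0.243). Without P1 A it fell by 0.92 on the log2 scale (adjusted p = 0.000384), and its high value at P1 A went with that library's fibroblast collagen Col1a2 (22, 5.1 and 6.28 CPM in P1 A, B and C). The part of these cells in the value of Igf2 was not tested.
Receptors of estrogen, progesterone and vasopressin rose. Esr1, the estrogen receptor, went from 1.4, 2.79 and 0.985 to 5.06, 5.18 and 5.75 CPM (log2 difference 1.65 ± 0.31; adjusted p = 0.000787), and Avpr1a, the vasopressin receptor, from 0.53, 0.501 and 0.258 to 2.85, 2.63 and 3.41 CPM (log2 difference 2.84 ± 0.27; adjusted p = 5.3e-06). The groups were apart for both. The progesterone receptor Pgr rose by 0.72 and Cyp46a1, which removes cholesterol from neurons, by 1.23, and in all 6 of 7 tested genes rose. Oxtr, the oxytocin receptor, rose by 0.48 (adjusted p = 0.0429), and its call was lost in 7 of 16 alternatives (adjusted p = 0.0525 to 0.137), which included DESeq2, no filter on low counts, and the absence of any library but P1 A.
In the retinoic acid pathway the synthesizing enzyme Aldh1a3 went from 1.02, 1.9 and 0.328 to 7.48, 10.6 and 10.6 CPM (log2 difference 3.22 ± 0.61; adjusted p = 0.00135). Of 13 genes of this pathway 4 rose and 1 fell (median 0.035), so 38.5% changed, against 49.9% of all tested genes. The receptor Rara rose by 0.4, and Rarb did not pass (adjusted p = 0.569).

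Most genes of the circadian clock rose: 13 of 17 genes rose and none fell, with a median of 0.66. Npas2, a partner of Arntl in the activating arm, went from 8.79, 9.7 and 6.45 to 31.3, 25.5 and 40.2 CPM (log2 difference 1.97 ± 0.21; adjusted p = 1.43e-05), and Arntl (Bmal1) from 20.8, 21.2 and 19 to 33.1, 35.1 and 35.8 CPM (log2 difference 0.77 ± 0.08; adjusted p = 1.05e-05). Nr1d1 (REV-ERBα), a repressor of Arntl, went from 6.89, 5.91 and 6.66 to 16.2, 14.2 and 25.3 CPM (log2 difference 1.51 ± 0.20; adjusted p = 5.23e-05). All 3 separated the ages although they act in opposite arms. Rora (1.23), Bhlhe40 (1.07), Per3 (0.72) and Dbp (0.65) rose, while Clock (adjusted p = 0.197), Per1, Per2 (adjusted p = 0.0742) and Cry1 (adjusted p = 0.0711) did not pass. Per2 passed as lower in 4 of 16 alternatives (adjusted p = 0.0229 to 0.0486), which included leaving out E17 C. Cry1 passed as higher in 6 of 16 alternatives (adjusted p = 0.031 to 0.0479), which included leaving out E17 A or P1 B, and Per1 passed as higher in 1 of 16 alternatives (adjusted p = 0.0292), the fit to the 6 libraries alone. Since the hour of collection is not given in the labels, age and hour cannot be told apart for these genes.

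Genes of neuronal activity moved in both directions. Hour of collection and time since delivery are not given in the labels, so age cannot be told apart from them for genes induced by activity. Of 17 immediate early transcription factors 8 rose and 2 fell (median 0.34), so 58.8% changed, against 49.9% of all tested genes. Egr1 went from 4.58, 6.52 and 3.73 to 32, 26.9 and 36.1 CPM (log2 difference 2.69 ± 0.19; adjusted p = 1.61e-06), and Fos from 0.644, 1.11 and 0.586 to 2.53, 3.04 and 3.2 CPM (log2 difference 1.93 ± 0.23; adjusted p = 1.88e-05). Npas4, which responds to calcium entry in neurons, went from 1.25, 0.788 and 0.75 to 3.57, 3.09 and 3.46 CPM (log2 difference 1.88 ± 0.25). All 3 genes had every P1 library above every E17 library. Egr2 (2.05), Egr3 (1.32), Egr4 (3.51) and Nr4a1 (1.23) rose too, but Junb (3.65 ± 0.515 and 4.6 ± 0.368 CPM; adjusted p = 0.0883, with 0.0471 without E17 A and 0.0491 in limma-voom), Nr4a2 (adjusted p = 0.521) and Nr4a3 (adjusted p = 0.515) did not pass. In the 250 bases before the start the cyclic AMP response element TGACGTCA stood in 1 of the 16 of these genes with a promoter in RefSeq (Maff, 6.25%), against 1.77% of all genes. Only these exact letters were sought, so variant or partial elements were not counted.
Of 26 effectors that activity induces in mature neurons 8 rose and 12 fell (median -0.2). This was 76.9% changed, against 49.9% of all tested genes. Vgf, a secreted neuropeptide precursor, went from 11.4, 16.3 and 8.7 to 32.8, 43.4 and 44.9 CPM (log2 difference 1.74 ± 0.20), and the granin Scg2 from 22, 12.8 and 21.9 to 44.5, 41.1 and 64.3 CPM (log2 difference 1.4 ± 0.23). Nrn1, neuritin, went the other way, from 24.8, 23.8 and 34.1 to 8.52, 8.4 and 6.66 CPM (log2 difference -1.82 ± 0.19; adjusted p = 1.72e-05), and the phosphatases Dusp4 (-1.33) and Dusp1 (-0.83) and the antiproliferative factor Btg2 (-1.62) fell. Arc, the synaptic immediate early gene, read 2.42, 2.11 and 2.74 CPM at E17 and 2.05, 2.24 and 2.7 CPM at P1 (adjusted p = 0.815), and Homer1 did not pass (adjusted p = 0.362). Bdnf, the activity-regulated neurotrophin, fell by 0.98 (adjusted p = 0.0128), a call lost without E17 C (adjusted p = 0.0531), P1 A (0.0599) or P1 C (0.0679).

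Most synaptic genes of the lists rose. Of 22 vesicle and active zone genes 15 rose and 2 fell, with a median of 0.52. Stx1a, a fusion protein of the presynaptic membrane, went from 85.6, 89.2 and 73.1 to 183, 186 and 225 CPM (log2 difference 1.26 ± 0.12; adjusted p = 5.67e-06), and the complexin Cplx2 from 374, 403 and 429 to 728, 723 and 927 CPM (log2 difference 0.98 ± 0.10). The vesicular glutamate transporters crossed: Slc17a7 rose by 0.84 and Slc17a6, the form of young cortex, fell by 0.53. Of 23 postsynaptic genes 15 rose and 1 fell (median 0.53). Ddn, dendrin, went from 7.65, 13.1 and 11.4 to 52.9, 50.9 and 82.2 CPM (log2 difference 2.53 ± 0.21; adjusted p = 4.35e-06) and Camk2a, the kinase of synaptic plasticity, from 37.1, 47.4 and 46.4 to 86.4, 93.8 and 108 CPM (log2 difference 1.14 ± 0.14). The scaffold Shank3 (0.93) and the SAP90-binding protein Dlgap3 (1.05) rose, while Nlgn1 (adjusted p = 0.751) and Dlg3 (adjusted p = 0.896) did not pass.

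Receptors and channels of excitability rose in part. Slc12a5 (KCC2), the chloride exporter that makes GABA inhibitory, went from 40.8, 45.4 and 35.9 to 85.3, 81.7 and 105 CPM (log2 difference 1.16 ± 0.16; adjusted p = 0.000145). Slc12a2 (NKCC1), the importer that makes it depolarizing in young neurons, read 65.5, 69.4 and 60.7 CPM at E17 and 63.2, 69.8 and 64.6 CPM at P1 (adjusted p = 0.854). The GABA-A receptor subunit Gabra5 went from 42.6, 56.2 and 30.1 to 95.6, 109.7 and 111 CPM (log2 difference 1.3 ± 0.19), while Gabra2 fell by 0.75 on the log2 scale. Of 18 GABA genes 10 rose and 1 fell (median 0.4).
Among the 15 subunits of ionotropic glutamate receptors 5 rose and none fell (median 0.15, and 9 changed in the fit to the 6 libraries alone). This was 33.3% changed, against 49.9% of all tested genes. Grin1, the obligatory NMDA receptor subunit, went from 77.6, 87.4 and 66.3 to 169.7, 167 and 196 CPM (log2 difference 1.21 ± 0.11; adjusted p = 4.37e-06), and Grin3a (0.98) and Grin2d (1.06) rose. Grin2b (695 ± 49.3 and 771 ± 16 CPM; adjusted p = 0.35, and 0.0359 in the fit to the 6 libraries alone) and the AMPA receptor subunits Gria1 (adjusted p = 0.903) and Gria2 (adjusted p = 0.512) did not pass.
Of 25 sodium and potassium channel genes 14 rose and 1 fell (median 0.43). Kcnh1, a potassium channel of the EAG family, went from 3.9, 3.08 and 2.04 to 22.4, 17.2 and 30.8 CPM (log2 difference 2.99 ± 0.26; adjusted p = 4.13e-06). The sodium channel Scn2a (0.64), the pacemaker channel Hcn2 (1.16) and the A-type channel Kcnd2 (0.98) rose, and Scn3a, the fetal sodium channel, did not pass (adjusted p = 0.375).

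Most genes of the brain extracellular matrix rose. Of 13 matrix genes 9 rose and 2 fell (median 0.41; 6 to 11 changed when 1 library was left out, and 7 without the filter on low counts). Bcan, brevican, went from 50.3, 71 and 35.5 to 154, 164 and 169 CPM (log2 difference 1.64 ± 0.33; adjusted p = 0.00253) and Hapln1, a link protein of perineuronal nets, from 0.303, 0.465 and 0.258 to 2.13, 2.47 and 3.01 CPM (log2 difference 2.92 ± 0.55), whereas Vcan, versican, fell by 0.36 on the log2 scale and Ncan did not pass (adjusted p = 0.194, and 0.00976 in the fit to the 6 libraries alone).
More imprinted genes fell than rose. The growth regulator Dlk1 went from 5.98, 5.62 and 6.45 to 1.65, 1.34 and 0.931 CPM (log2 difference -2.21 ± 0.36), Mest fell by 1.33, Plagl1 by 1.09 and the growth inhibitor Grb10 by 0.93 on the log2 scale. Meg3, the maternal long noncoding RNA of the Dlk1 locus, rose from 535, 522 and 392 to 919.9, 1072 and 1176 CPM (log2 difference 1.13 ± 0.25; adjusted p = 0.00422). Of 20 imprinted genes 10 fell and 4 rose (median -0.33), so 70% changed, against 49.9% of all tested genes.
The RNA-binding proteins Igf2bp1 (-1.25), Igf2bp2 (-0.89) and Igf2bp3 (-0.91), which mark fetal progenitors, fell, and Lin28b did not pass (2.7 ± 0.673 and 2.46 ± 0.20 CPM; adjusted p = 0.703).

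Over all genes above 10 CPM at E17 or P1, apart from sex-linked genes and transcripts without a gene name, the 10 largest rises with no overlap were those of Robo3 (3.79), Gpc5 (3.7), Sidt1 (3.35), Rxfp1 (3.19), Nrgn, Kcnh1, Egr1, Ddn, Creg2 (2.45) and Klhl1 (2.4). Rxfp1 is the receptor of the reproductive hormone relaxin and went from 2.05, 2.33 and 1.15 to 13.4, 15.7 and 20.3 CPM (adjusted p = 5.83e-06). Robo3, an axon guidance receptor of midline crossing, went from 1.17, 1.75 and 0.516 to 13.7, 16 and 15 CPM (adjusted p = 5.79e-06). The mean of Robo3 was 73.4 CPM at E11 and 49.7 CPM at E13, so E17 held the lowest mean of the 4 ages.
The 10 largest falls were those of Neurog2, Eomes, the 4 adult globin genes, Tfap2c (-2.29), a factor of basal progenitors, Mfap4 (-2.04), Celsr1 (-1.98), a planar polarity cadherin of progenitors, and Cecr2 (-1.97), a chromatin remodeler. Celsr1 read 141, 127 and 175 CPM at E17 and 45.2, 40.7 and 26.8 CPM at P1 (adjusted p = 1.83e-05).

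Cells from outside the neural tissue differed between libraries. Red cell RNA, mostly that of the adult globins, summed over the erythroid list to 288, 165 and 344 CPM at E17 and 84.1, 57.9 and 45.7 CPM at P1. Alas2, a defining red cell marker, fell by 1.52 on the log2 scale (adjusted p = 0.031), a call lost in 6 of 15 alternatives (adjusted p = 0.0717 to 0.135). Red cell genes other than the adult globins did not all fall with them: Klf1, the erythroid transcription factor, read 0.204 ± 0.0499 and 0.187 ± 0.0619 CPM (adjusted p = 0.871), and the embryonic globins Hba-x, Hbb-bh1 and Hbb-y did not pass (adjusted p = 0.636, 0.871 and 0.305), apart from Hbb-y as higher in DESeq2 (0.0294). Hbb-bt went from 40.9, 21.4 and 47.5 to 8.42, 5.75 and 4.06 CPM (log2 difference -2.61 ± 0.50; adjusted p = 0.0023) and Hba-a1 from 60, 34.7 and 73.2 to 18.4, 11.6 and 10.8 CPM (log2 difference -2.05 ± 0.48). Hba-a1 and Hba-a2 are near-identical copies, as are Hbb-bs and Hbb-bt, so the split of reads within each pair is uncertain. The call of Hbb-bs (adjusted p = 0.0154) was lost without E17 C (0.0521), P1 B (0.051) or P1 C (0.0608). Of 12 erythroid genes 5 fell and none rose (median -1.79; 8 changed in DESeq2 and 3 to 5 when 1 library was left out). Their part in other results was not tested beyond leaving these genes out, after which 8909 genes changed.
Meningeal fibroblast genes summed to 92, 99.9 and 91.5 CPM at E17 and 138, 64.8 and 59.5 CPM at P1, with P1 A highest. In that list 2 genes fell and none rose (0 to 5 changed when 1 library was left out). Choroid plexus genes summed to 4.54, 10.7 and 2.63 and 4.79, 5.36 and 5.23 CPM, and of 8 tested 1 rose and none fell (median 0.65). The defining gene Ttr was at 2.58, 7.16 and 0.188 and 0.107, 0.103 and 0.215 CPM (adjusted p = 0.23, and 0.000674 in DESeq2). Striatal genes summed to 276, 186 and 197 and 278, 260 and 325 CPM. Of 12 such genes 3 rose and 2 fell (median -0.195), so 41.7% changed, against 49.9% of all tested genes. Drd2, which fell, was at 4.96, 1.18 and 2.16 CPM at E17, highest in E17 A, and 1.15, 0.928 and 1.27 CPM at P1 (adjusted p = 0.0171, 0.126 without E17 A, 0.0656 without P1 B and 0.0547 in the fit to the 6 libraries alone). Granulocyte and lymphocyte genes summed to at most 3.24 CPM in any of the 6 libraries.
Cldn5, the tight junction protein of brain vessels, was at 39.2, 37.6 and 31 CPM at E17 and 44.5, 34.5 and 43 CPM at P1 and did not pass (adjusted p = 0.221, and 0.0423 without P1 B). Of 21 endothelial and barrier genes 4 rose and 3 fell, so 33.3% changed, against 49.9% of all tested genes. Slco1a4, an organic anion transporter of the barrier, went from 0, 0.107 and 0.0469 to 0.959, 1.06 and 2.12 CPM (adjusted p = 0.00289) and Plvap, the diaphragm protein of leaky vessels, from 1.55, 1.72 and 1.5 to 4.45, 4.77 and 5.59 CPM (log2 difference 1.64 ± 0.16; adjusted p = 5.4e-06).
Interferon-induced and class I genes moved in both directions. Irf7, a transcription factor of the interferon response, fell by 2.06 on the log2 scale, while H2-D1, a class I gene, rose by 0.51. Of 18 such genes 6 fell and 2 rose (median -0.48; 5 changed in the fit to the 6 libraries alone and 4 to 10 when 1 library was left out). This was 44.4% changed, against 49.9% of all tested genes.

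**Figure D5:**
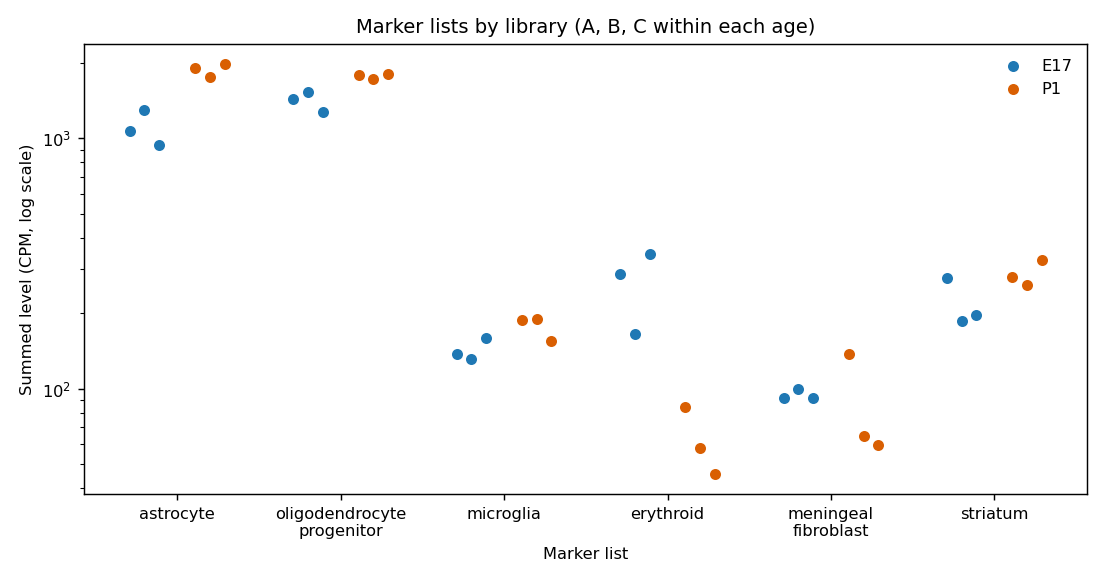
Summed level in CPM (log scale) of the marker lists of 6 cell types in each E17 and P1 library; each point is 1 library, in the order A, B, C. The erythroid sum is lower in every P1 library than in every E17 library, the astrocyte and oligodendrocyte progenitor sums are higher, and the meningeal sum is highest in P1 A.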

How the data were processed

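Poly(A) RNA of 1 cortex per library was sequenced as 75-base single reads from a strand-marking kit, per the labels' protocols. The deposited values are raw counts of reads per gene, whole numbers, made by the authors with STAR 2.5.2b and HTSeq 0.5.3 among the tools that the submitters' processing notes list. The sources used here do not state the genome build, the annotation or how strand was handled in counting, so reads of overlapping or antisense genes may be shared and no gene coordinates are given beyond the RefSeq promoters. Gene IDs were named from a symbol table.

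Counts of all 12 libraries were fitted in edgeR 4.0.16 with age as the factor (TMM scaling, filterByExpr with a minimum count of 10), and P1 was tested against E17 with the quasi-likelihood test and Benjamini-Hochberg adjustment over all tested genes. The 52 gene lists, their members and the tests were chosen with earlier results of these data known. Named genes were up to 3 largest rises and falls per list above 1 CPM, receptors, enzymes and defining markers, and the 10 largest rises and falls above 10 CPM without overlap; sex-linked genes and transcripts without a gene name were left out of the last. Alternatives were other scalings and filters, the 6 libraries alone, DESeq2 1.42.0, limma-voom (limma 3.58.1), a block, removal of red cell genes and leaving out each library. The scripts were tested on simulated data. Some genes that the rule names are not reported here.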

Additional observations from a re-analysis of the deposited data

How the results depend on the processing

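The number of genes changed was 8913 and ran from 7250 to 9481 over all alternatives, all within 1.5 times. No named gene that passed reversed its direction. Of 206 named genes that changed, 190 passed in all 16 alternatives, 6 passed in all those in which they were tested, and 10 lost the call in at least 1. Car9 and Alas2 are not in these counts. Of 57 that did not pass, 29 passed in at least 1. The letters A, B and C did not pair the libraries: deviations of same-letter libraries correlated at -0.257, -0.214 and -0.103. With the letter as a replicate block 8490 genes changed, and list counts moved to 10 (ionotropic glutamate receptors), 12 (interneuron), 8 (pericyte), 3 (choroid plexus) and 5 (MHC and interferon). Among the 6 libraries alone they moved to 5 (ketone body use), 9 (ionotropic glutamate receptors), 11 (interneuron), 3 (striatum), 8 (pericyte), 3 (choroid plexus) and 5 (MHC and interferon). Without the low-count filter they were 9 (oligodendrocyte progenitor), 2 (choroid plexus) and 7 (matrix), and at 1 CPM in 3 libraries 4 (meningeal), 0 (choroid plexus) and 5 (MHC and interferon). DESeq2 gave 6 (meningeal), 3 (choroid plexus) and 8 (erythroid), and limma-voom 1 (meningeal). Leaving out 1 library at a time gave 7 to 11 (fatty acid oxidation), 8 to 14 (oligodendrocyte progenitor), 5 to 9 (neurofilament and mature axon), 5 to 8 (upper layer), 3 to 5 (striatum), 3 to 5 (pericyte and smooth muscle), 0 to 5 (meningeal fibroblast), 1 to 2 (choroid plexus), 3 to 5 (erythroid), 4 to 10 (MHC class I and interferon response), 6 to 11 (perineuronal and brain matrix). The causes were not tested. Low genes are limited by depth.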
